A study of Mus musculus with 11 samples.

Results

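The RNA levels of the NF-kB family and of the feedback inhibitors that it induces were examined in LSKs of 3 p53 genotypes. The set was chosen by gene symbol and holds 10 genes, made up of 5 subunit genes (Rela, Nfkb1, Nfkb2, Relb and Rel) and 5 inhibitor genes (Nfkbia, Nfkbie, Bcl3, Nfkbiz and Tnfaip3). Bcl3 and Nfkbiz encode nuclear proteins that do not only inhibit, and they are placed among the inhibitors here as part of the set. All 10 genes were found among the 12647 genes of the count data and all 10 were among the 12625 genes that were tested. None of the 10 genes changed between any pair of genotypes at an adjusted p below 0.05. LSKs (Lin-Sca1+Kit+ cells) are the bone marrow population that holds hematopoietic stem cells and early progenitors. From each of p53+/+, p53R248W/+, and p53-/- mice, 3 RNA-seq libraries were made. The study's methods state backcrossing to C57BL/6 for the p53+/+ and p53R248W/+ mice, and do not name the p53-/- mice there. The p53+/+ mice carry the humanized p53 knock-in (HUPKI) allele, which encodes a chimeric human and mouse protein from the mouse Trp53 promoter. The p53R248W/+ mice are heterozygous for the R248W substitution in that same allele. The mice of the study were young and tumor free, and the source of the p53-/- allele is not given in the sources used here. The comparisons address whether a mutant p53 allele or loss of p53 alters this pathway in unstimulated stem and progenitor cells. RNA was read from whole sorted populations, so that fewer cells of a type and less RNA per cell cannot be told apart.

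NF-kB is a family of dimeric transcription factors that is held in the cytoplasm by IkB proteins. Signals from cytokine and Toll-like receptors activate the IkB kinase complex, the IkB protein is degraded, and the released dimer enters the nucleus and binds kB sites. Among the genes it turns on are those of its own inhibitors, which shut the signal down again, and of several of its own subunits. In bone marrow the pathway is known for its part in emergency myelopoiesis, in lymphoid development, and in the response of stem cells to inflammation. Much of its control acts on proteins, which RNA levels do not report.

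The promoter sequences of these genes are shown first because feedback through kB sites is what ties the inhibitors to the subunits. RefSeq promoter windows (build GRCm38.p6, 250 bases before and 50 bases after each start) were at hand for 7 of the 10 genes, in 10 windows. Nfkb1, Relb and Nfkbiz had no window here. A match to the general kB site, a pattern of 10 bases sought on both strands, was found for 6 of these 7 genes and in 8 of their 10 windows, beside 9.55% of all 27018 genes and 8.46% of all 32841 windows. Rela was the gene without a match. The match in Nfkb2 at chr19:46305705-46305714 lies where windows of this gene overlap, and it was counted in each of them. A match to the p53 half-site pattern was found for 0 of the 7 genes, beside 9.56% of all genes and 8.36% of all windows. The promoter of Nfkbia, which encodes IkB alpha, is given below for the 250 bases before its start (chr12:55492648-55492897, minus strand, 5' to 3'), with its match in capitals, 29 bases before the start.

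Nfkbia promoter: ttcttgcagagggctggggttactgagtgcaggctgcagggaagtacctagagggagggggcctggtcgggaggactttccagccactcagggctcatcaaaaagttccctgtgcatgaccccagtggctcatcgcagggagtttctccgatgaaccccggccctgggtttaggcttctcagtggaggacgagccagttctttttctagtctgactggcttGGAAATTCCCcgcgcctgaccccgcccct

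The other matches are given with the bases next to them, each 5' to 3' on the strand of its gene and with the match in capitals. All were picked by the same pattern, so likeness within the capitals is fixed by the search.

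Tnfaip3 (12 bases before the start, chr10:19015413-19015422, minus strand): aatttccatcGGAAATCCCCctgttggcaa

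Rel (92 bases before the start, chr11:23771052-23771061, minus strand): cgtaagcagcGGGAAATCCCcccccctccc

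Nfkbie (106 bases before the start, chr17:45555594-45555603, plus strand): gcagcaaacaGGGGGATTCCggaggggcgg

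Nfkb2 (39 bases before the start, chr19:46304698-46304707, plus strand): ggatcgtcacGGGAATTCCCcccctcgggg

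Bcl3 (3 bases after the start, chr7:19822744-19822753, minus strand): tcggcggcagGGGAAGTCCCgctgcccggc

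Further matches lay 125 bases before the start in Tnfaip3 and at other places in the windows of Nfkb2, and those of Rel and Nfkb2 shown above each overlap another match that is shifted by 1 base. The letters alone do not show that a factor binds there.

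The 9 libraries held between 18021375 and 29750702 counts, with p53R248W/+ replicate 1 the deepest, so that even Rel, the least abundant of the 10 genes, was read by 121 to 254 counts in each library. Levels are given as CPM, which are counts scaled to the depth of each library with TMM factors, and adjusted p-values are from edgeR's quasi-likelihood test over all genes. Trp53, the targeted gene, had 125, 207 and 376 CPM in p53+/+, 219, 240.5 and 235 CPM in p53R248W/+, and 129, 127 and 112 CPM in p53-/- libraries. It did not separate p53+/+ replicate 1 from p53-/-, and the deleted part is not stated. The p53+/+ and p53R248W/+ alleles also hold human sequence, whereas reads were aligned to the mouse genome, and the effect on the counts was not tested. The level of Trp53 therefore does not check the labels. The sorting markers Kit (427 to 861 CPM) and Ly6a (149 to 444 CPM), which encodes Sca1, were high in all libraries, and the 13 LSK markers summed to 4014 to 5072, 4357 to 4872, and 5046 to 5564 CPM in p53+/+, p53R248W/+ and p53-/- libraries. Granulocyte and monocyte markers (14 of 15 measured) summed to 2997 to 8478 CPM in p53+/+, 4451 to 9969 CPM in p53R248W/+, and 2204 to 2617 CPM in p53-/- libraries. Sums for macrophage markers (35.4 to 96.4 CPM) and B lymphoid markers (76.3 to 136 CPM) were low, while T and NK markers, mostly Nkg7 and Lck, summed to 431 to 482, 443 to 556 and 277 to 355 CPM in the same order of genotypes. Sums for erythroid and megakaryocyte markers were 183 to 222, 172 to 223, and 144 to 178 CPM. Of these lists, Ly6g, Marco, Pax5, Cd3d, Cd3e, Cd3g, Hbb-bt and Hba-a1 were not analysed here.

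Levels were first compared between the 10 genes per length, as RPKM, which scales CPM by the gene lengths of the count data. In p53+/+ LSKs, Nfkbia and Rela were the most abundant, at 73.0 ± 15.2 and 70.2 ± 3.51 RPKM (SD, n = 3), and their libraries overlapped. Rela encodes the main transactivating subunit. Nfkb1, whose product is processed to its usual partner, followed with 44.3 ± 5.40 RPKM and lay below every Rela library. These 3 genes were above at least 80.4% of all genes, whose median was 11.2 RPKM. Nfkbie (IkB epsilon) had 19.7 ± 5.08 RPKM and Bcl3, an atypical IkB protein that works in the nucleus with NF-kB dimers, had 14.4 ± 3.40 RPKM, and these neighbours overlapped. Nfkb2 (7.80 ± 0.172 RPKM), Nfkbiz (7.68 ± 4.55 RPKM), Relb (6.67 ± 2.53 RPKM), Tnfaip3 (4.16 ± 1.65 RPKM) and Rel (3.10 ± 0.710 RPKM) formed the lower end, and each overlapped the next. The first 5 places were held by the same genes in the same order in all 3 genotypes, and Tnfaip3 and Rel were last in each. In p53-/- LSKs Nfkbia lay above Rela in every library, with a lowest value of 79.3 RPKM against a highest Rela value of 76.6 RPKM.

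**Figure D1:**
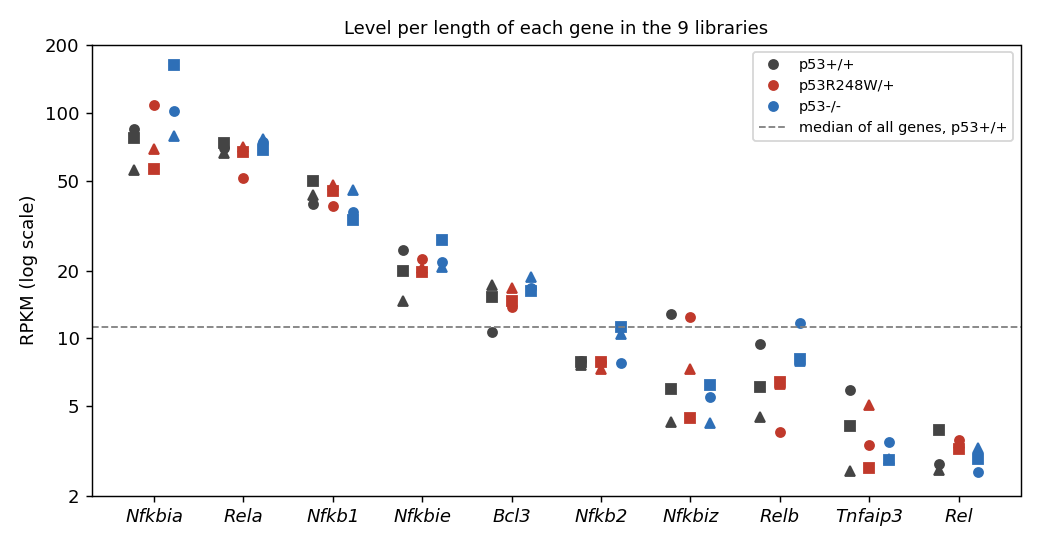
RPKM (log scale) of each of the 10 genes in the 9 libraries, by genotype (black p53+/+, red p53R248W/+, blue p53-/-) with circles, squares and triangles for replicates 1, 2 and 3, and the median of all genes in p53+/+ (11.2 RPKM) as a dashed line. Nfkbia, Rela and Nfkb1 sit above the line in all libraries and Rel and Tnfaip3 below it.

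As a share of the summed RPKM of the 5 subunit genes, Rela made up 53.2 ± 1.02% in p53+/+, 51.0 ± 1.78% in p53R248W/+, and 54.9 ± 1.37% in p53-/- LSKs (SD, n = 3). Nfkb1 made up 33.5 ± 2.70%, 35.5 ± 1.00%, and 28.6 ± 2.59% in the same order. The canonical pair thus took up most of the subunit RNA in each genotype. Nfkb2 and Relb, the subunits of the alternative pathway, made up 5.91 ± 0.335% and 5.06 ± 1.96% in p53+/+, 6.27 ± 1.04% and 4.38 ± 0.648% in p53R248W/+, and 7.38 ± 1.59% and 6.95 ± 1.70% in p53-/- LSKs. Rel, the subunit best known from lymphocytes, stayed between 1.92% and 3.35% in all libraries.

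Among the subunits, Rela had 189.9, 199.98 and 181 CPM in p53+/+, 140.0, 183 and 193 CPM in p53R248W/+, and 201, 187 and 207 CPM in p53-/- libraries. All Rela values but that of p53R248W/+ replicate 1 lay close together. Nfkb1 had 162, 206 and 179 CPM in p53+/+, 159, 186 and 198 CPM in p53R248W/+, and 150.0, 138 and 187 CPM in p53-/- libraries, with full overlap. The log2 fold changes against p53+/+ were -0.15 ± 0.16 (SE) for Rela and -0.01 ± 0.18 for Nfkb1 in p53R248W/+, and 0.06 ± 0.16 and -0.21 ± 0.18 in p53-/- LSKs. The 95% intervals allowed Rela to be between 0.706-fold and 1.16-fold of p53+/+ in p53R248W/+ and between 0.815-fold and 1.33-fold in p53-/- LSKs. For Nfkb1 they ran from 0.761-fold to 1.30-fold and from 0.664-fold to 1.13-fold.

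Nfkb2 had 26.1, 25.8 and 25.0 CPM in p53+/+, 25.7, 25.9 and 24.0 CPM in p53R248W/+, and 25.5, 37.0 and 34.4 CPM in p53-/- libraries. The 6 libraries with a p53 allele lay between 24.0 and 26.1 CPM, and p53-/- replicate 1 fell among them while the other 2 p53-/- libraries were higher. The log2 fold change was -0.03 ± 0.19 in p53R248W/+ and 0.33 ± 0.19 in p53-/- LSKs against p53+/+ (adjusted p = 0.311 for p53-/-). Nfkb2 overlaps Psd and a noncoding RNA gene in RefSeq, and whether strand was used in counting is not given in the sources used here, so their reads may not be told apart. Psd itself had 1.12 to 3.70 CPM.

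Relb had 20.8, 13.4 and 9.87 CPM in p53+/+, 8.48, 14.01 and 13.8 CPM in p53R248W/+, and 25.8, 17.8 and 17.5 CPM in p53-/- libraries. The p53+/+ libraries spanned most of this range and overlapped both other genotypes, whereas each p53R248W/+ library was below each p53-/- library. Rel had 7.15, 10.1 and 6.75 CPM in p53+/+, 9.13, 8.33 and 8.87 CPM in p53R248W/+, and 6.58, 7.54 and 8.45 CPM in p53-/- libraries, without any separation. Against p53+/+, the log2 fold change of Relb was -0.28 ± 0.32 in p53R248W/+ and 0.47 ± 0.31 in p53-/- LSKs (adjusted p = 0.393). Relb values of between 0.510-fold and 1.32-fold of p53+/+ in p53R248W/+ LSKs, and between 0.860-fold and 2.23-fold in p53-/- LSKs, were within the 95% intervals.

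**Figure D2:**
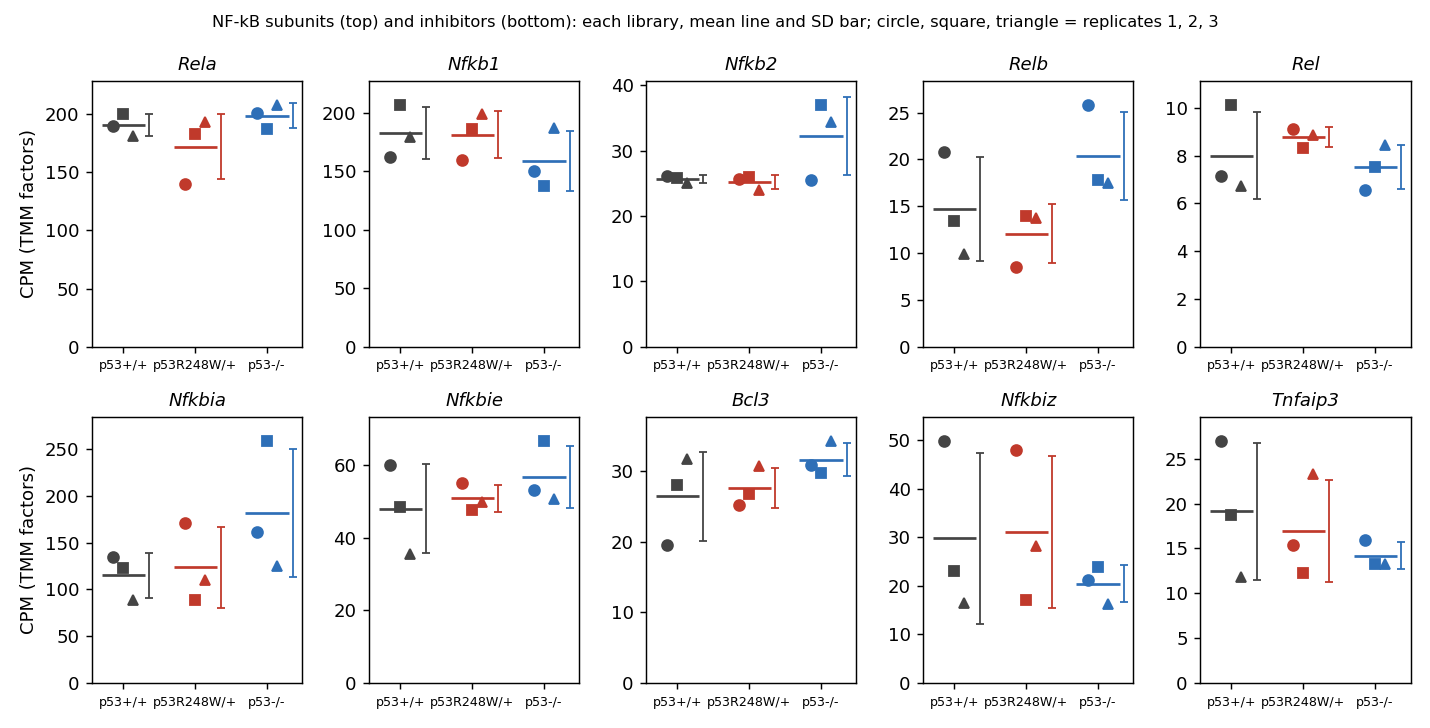
CPM (from 0) of the 5 subunit genes (top) and the 5 inhibitor genes (bottom) in each library of p53+/+ (black), p53R248W/+ (red) and p53-/- (blue), with circles, squares and triangles for replicates 1, 2 and 3, the mean as a line and the SD (n = 3) as a bar. The genotypes overlap in every panel, apart from Relb, where the p53R248W/+ libraries (8.48 to 14.01 CPM) lie below the p53-/- libraries (17.5 to 25.8 CPM).

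Nfkbia, whose product IkB alpha is the classic feedback inhibitor, had 134, 123 and 88.3 CPM in p53+/+, 172, 89.1 and 110.0 CPM in p53R248W/+, and 162, 259 and 125 CPM in p53-/- libraries. The lowest p53-/- library lay between the 2 upper p53+/+ libraries, and p53-/- replicate 2 stood above all others. The mean was 115 ± 23.9 CPM in p53+/+, 124 ± 42.9 CPM in p53R248W/+, and 182 ± 68.9 CPM in p53-/- LSKs (SD, n = 3). The log2 fold change was 0.10 ± 0.30 in p53R248W/+ and 0.66 ± 0.30 in p53-/- LSKs against p53+/+ (adjusted p = 0.210 for p53-/-). Its 95% interval in p53-/- LSKs reached from 1.00-fold to 2.48-fold of p53+/+, and without p53-/- replicate 2 the log2 fold change was 0.32 (adjusted p = 0.586).

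Nfkbie had 60.3, 48.6 and 35.5 CPM in p53+/+, 55.1, 47.8 and 49.8 CPM in p53R248W/+, and 53.3, 66.7 and 50.8 CPM in p53-/- libraries. Bcl3 had 19.5, 28.0 and 31.7 CPM in p53+/+, 25.3, 26.8 and 30.8 CPM in p53R248W/+, and 30.8, 29.8 and 34.3 CPM in p53-/- libraries. For both genes the p53+/+ libraries covered most of the range of the other genotypes. Their log2 fold changes against p53+/+ were 0.08 ± 0.21 and 0.06 ± 0.21 in p53R248W/+, and 0.24 ± 0.21 and 0.26 ± 0.21 in p53-/- LSKs.

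Nfkbiz, which encodes the nuclear IkB zeta that takes part in the induction of secondary inflammatory genes, had 49.8, 23.0 and 16.5 CPM in p53+/+, 48.0, 17.1 and 28.3 CPM in p53R248W/+, and 21.3, 23.9 and 16.3 CPM in p53-/- libraries. Replicate 1 of p53+/+ and of p53R248W/+ were about equally high and the other 7 libraries were lower. Tnfaip3, which encodes a ubiquitin-editing enzyme that ends signaling upstream of the IkB kinases, had 26.96, 18.7 and 11.8 CPM in p53+/+, 15.4, 12.2 and 23.3 CPM in p53R248W/+, and 15.9, 13.3 and 13.3 CPM in p53-/- libraries. The p53-/- values of both genes lay inside the range of the p53+/+ values, except for the lowest Nfkbiz value. The log2 fold changes in p53-/- LSKs were -0.54 ± 0.42 (adjusted p = 0.467) and -0.43 ± 0.32 (adjusted p = 0.443), and in p53R248W/+ LSKs they were 0.06 ± 0.42 and -0.17 ± 0.32. The intervals of Nfkbiz were the widest of the 10 genes and reached from 0.557-fold to 1.96-fold of p53+/+ in p53R248W/+ and from 0.365-fold to 1.30-fold in p53-/- LSKs.

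Taking the 10 genes as a group, p53R248W/+ and p53+/+ LSKs were compared first, to ask what differs with a mutant allele beside a p53+/+ allele. There were no p53+/- libraries, so an effect of the mutant protein and the loss of a p53+/+ allele cannot be told apart. By edgeR's quasi-likelihood test 0 of the 10 genes passed an adjusted p of 0.05, where 0.00792% of all genes did. At an unadjusted p under 0.05 the count was 0 with edgeR, DESeq2 and limma-voom, against a background of 0.958%, and no gene had separate groups of libraries, against 5.04%. The median log2 fold change was 0.03 and the median size of change was 0.09, beside 0.01 and 0.13 over all genes, and 5 genes were positive and 5 negative. Each adjusted p was 1.00.

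For p53-/- against p53+/+ LSKs, 0 of 10 genes passed the adjusted threshold by edgeR, which 3.50% of all genes did. At an unadjusted p under 0.05 there was 1 gene, Nfkbia (an unadjusted p of 0.0484), beside 23.4% of all genes, and the count was 1 with DESeq2 and 0 with limma-voom. No gene had groups of libraries that did not overlap, beside 31.4% of all genes. The median log2 fold change was 0.15 and the median size of change 0.30, beside 0.00 and 0.33 over all genes.

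The direct comparison of p53R248W/+ with p53-/- LSKs shares its libraries with the other comparisons and is no separate evidence. By edgeR 0 of 10 genes passed the adjusted threshold, beside 3.44% of all genes. Relb was the 1 gene with an unadjusted p under 0.05 by edgeR, DESeq2 and limma-voom, beside 21.0% of all genes by edgeR, and the 1 gene without overlap, beside 24.2% of all genes. Its level in p53R248W/+ LSKs was 12.1 ± 3.12 CPM against 20.3 ± 4.72 CPM in p53-/- LSKs (SD, n = 3), a log2 fold change of -0.75 ± 0.32 with a 95% interval from -1.44 to -0.06 (adjusted p = 0.200). Over 17 alternative settings its log2 fold change ranged from -0.87 to -0.57 and its adjusted p from 0.124 to 0.442. Nfkbiz and Nfkbia had log2 fold changes of 0.60 ± 0.42 and -0.56 ± 0.30 (adjusted p = 0.445 and 0.313), with libraries that overlapped.

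**Figure D3:**
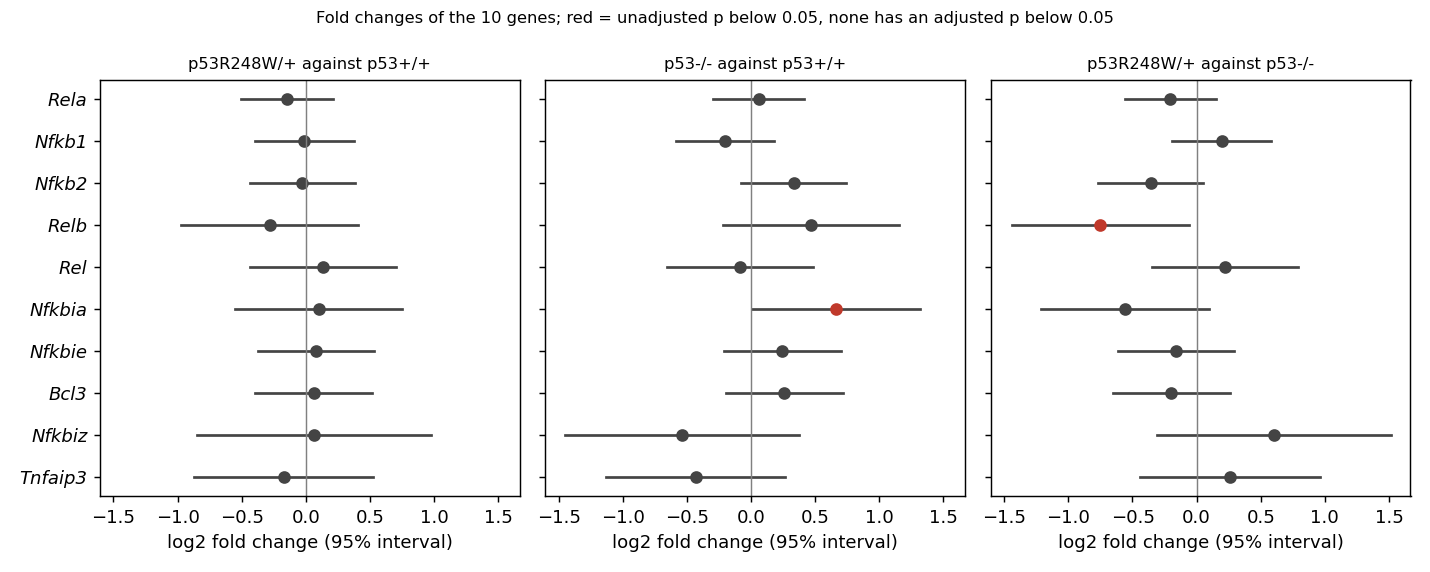
Log2 fold change of each of the 10 genes (points) with its 95% interval (lines) in the 3 comparisons, with points in red where the unadjusted p is under 0.05. All intervals of p53R248W/+ against p53+/+ include 0, and the red points are Nfkbia at 0.66 (p53-/- against p53+/+) and Relb at -0.75 (p53R248W/+ against p53-/-), whose adjusted p-values are 0.210 and 0.200.

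The 10 genes differed in their spread between libraries of a genotype. The pooled SD of log2 CPM within genotypes was 0.16 for Rela, 0.17 for Nfkb2 and 0.19 for Nfkb1, which was at or above the values of 9.61%, 12.2% and 17.3% of all genes. It was 0.66 for Nfkbiz, 0.45 for Nfkbia and 0.45 for Tnfaip3, at or above 88.2%, 74.7% and 74.0% of all genes. It was 0.43 for Relb, at or above 71.9%. Rel (0.21), Bcl3 (0.23) and Nfkbie (0.26) were at or above 22.5%, 28.7% and 35.9%. Over all 9 libraries, and so with differences between genotypes included, the highest held 3.07 times the CPM of the lowest for Nfkbiz. It held 3.04 times for Relb and 2.93 times for Nfkbia, but 1.48 times for Rela.

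Immediate early and heat shock genes, which are known to be induced within minutes of cell handling as well as by signaling, moved with some of the inhibitors. The summed level of 22 such genes (of 24 listed) was 7868, 6092 and 4309 CPM in p53+/+, 10476, 3697 and 6519 CPM in p53R248W/+, and 4370, 4689 and 2897 CPM in p53-/- libraries. The 2 libraries with the highest sums were also the 2 with the highest Nfkbiz. As a description over 9 libraries that share genotypes and preparation, Pearson's r with this sum on the log2 scale was 0.92 for Nfkbiz, and 0.93 within genotypes. For Nfkbia r was 0.25 over all libraries and 0.88 within genotypes. For Tnfaip3 it was 0.62 and 0.58, for Nfkbie 0.30 and 0.71, and for Rela -0.65 and -0.57. Bcl3, the remaining inhibitor, went the other way, with -0.66 and -0.56. The other subunits had -0.12 and -0.60 (Nfkb1), -0.45 and -0.05 (Nfkb2), -0.36 and 0.02 (Relb), and 0.29 and 0.08 (Rel). In p53-/- against p53+/+ LSKs 0 of the 22 genes rose and 4 fell, namely Fos (log2 fold change -3.27 ± 0.66, adjusted p = 0.0274), Jun (-1.77 ± 0.31, adjusted p = 0.0174), Zfp36 (-2.004 ± 0.47, adjusted p = 0.0427) and Hspa1a (-5.70 ± 1.30, adjusted p = 0.0392). These counts stand beside 3.50% of all genes. In p53R248W/+ against p53-/- LSKs 5 of the 22 were higher, beside 3.44% of all genes. Under the other settings the number that fell in p53-/- LSKs ranged from 0 to 11, the number that rose from 0 to 1, and the number higher in p53R248W/+ than in p53-/- LSKs from 0 to 11. The part of this difference in the values of the inhibitors was not tested.

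**Figure D4:**
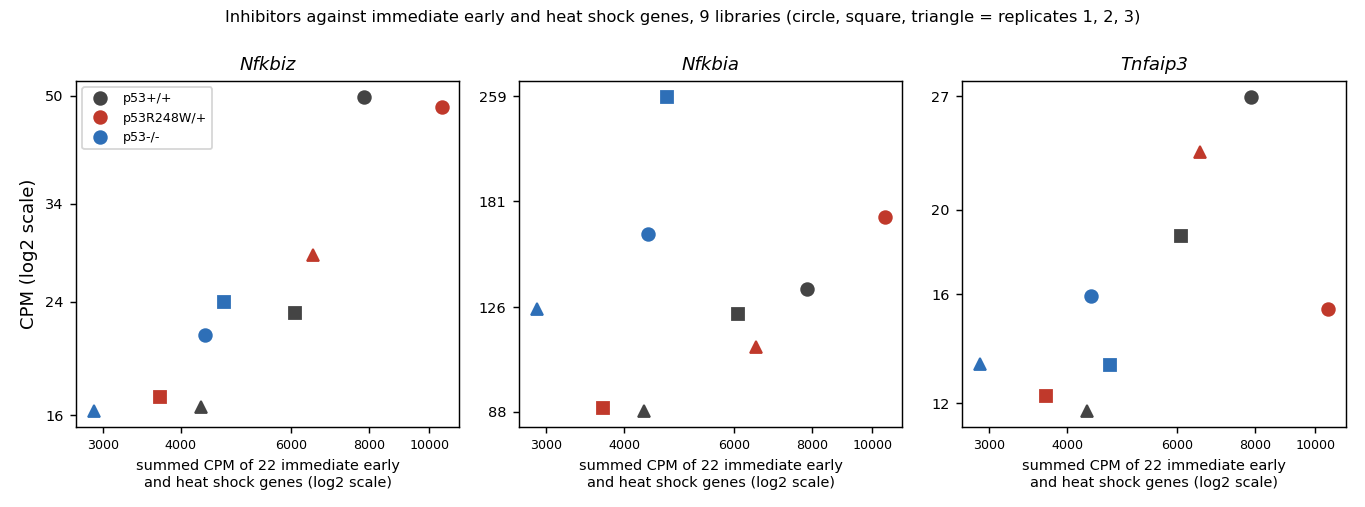
CPM of Nfkbiz, Nfkbia and Tnfaip3 (vertical, log2 scale) against the summed CPM of 22 immediate early and heat shock genes (horizontal, log2 scale) in the 9 libraries, by genotype (black p53+/+, red p53R248W/+, blue p53-/-) and replicate (circle, square, triangle for 1, 2, 3). Nfkbiz follows the sum across genotypes (r = 0.92), while for Nfkbia it is 0.25.

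The other genes of the pathway were followed in lists by role. In p53R248W/+ against p53+/+ LSKs, 0 of 14 further inhibitors, 0 of 12 kinases, 0 of 31 receptors and adaptors, and 0 of 30 target genes passed the adjusted threshold by edgeR, and none of them had an unadjusted p under 0.05. The medians of their log2 fold changes were 0.03, -0.08, -0.02 and -0.03. In this comparison the count stayed at 0 in every list under all 17 alternative settings, DESeq2 and limma-voom included.

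In p53-/- against p53+/+ LSKs, 5 of the 14 further inhibitors passed the threshold, with 2 higher and 3 lower, beside 3.50% of all genes. The median log2 fold change of the list was 0.02. Nfkbid, which encodes the nuclear IkB protein IkB-NS, had 40.4, 23.6 and 21.97 CPM in p53+/+, 34.2, 14.7 and 19.0 CPM in p53R248W/+, and 10.1, 6.19 and 7.27 CPM in p53-/- libraries. It was lower by 1.87 ± 0.36 on the log2 scale in p53-/- than in p53+/+ LSKs (adjusted p = 0.0241), and each p53-/- library was below all others. Tax1bp1, an adaptor through which the Tnfaip3 product works, had 265, 419 and 351 CPM in p53+/+, 282, 403 and 417 CPM in p53R248W/+, and 144, 130.2 and 178 CPM in p53-/- libraries, a fall of 1.20 ± 0.22 on the log2 scale (adjusted p = 0.0210). Again no p53-/- library reached the other genotypes. Zc3h12a, which encodes a nuclease that degrades inflammatory mRNAs, fell by 1.39 ± 0.34 on the log2 scale from a low level of 9.03 ± 2.14 CPM (adjusted p = 0.0494).

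Of the 2 that rose, Tnip3, which encodes a partner of the Tnfaip3 product, went from 33.0 ± 6.87 CPM in p53+/+ to 74.2 ± 14.01 CPM in p53-/- LSKs (log2 fold change 1.17 ± 0.26, adjusted p = 0.0364). Rnf11, a ubiquitin ligase of the same complex, went from 63.5 ± 9.56 to 117 ± 10.8 CPM (0.88 ± 0.19, adjusted p = 0.0340). Of these partners Tax1bp1 thus fell, Tnip3 and Rnf11 rose, and Tnfaip3 itself did not pass the test.

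Of the 12 kinases and their adaptors 9 had a negative log2 fold change in p53-/- LSKs, the median was -0.64, and 2 fell past the threshold, beside 3.50% of all genes. Ikbkb, which encodes the catalytic IKK beta, had 94.1, 146 and 130.1 CPM in p53+/+, 78.8, 123 and 142 CPM in p53R248W/+, and 52.9, 49.6 and 64.2 CPM in p53-/- libraries. Its fall of 1.15 ± 0.24 on the log2 scale (adjusted p = 0.0294) left all p53-/- libraries below the others. Ikbke, which encodes a related kinase, fell by 0.86 ± 0.21 on the log2 scale (adjusted p = 0.0497). Chuk (IKK alpha) and Ikbkg (the scaffold NEMO) had log2 fold changes of -0.45 and 0.51 that did not pass (adjusted p = 0.245 and 0.162).

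Of the 31 receptors and adaptors, 2 rose and 0 fell in p53-/- LSKs, beside 3.50% of all genes, with a median of 0.17. Tlr2, a receptor for bacterial lipoproteins, had 18.6, 22.8 and 17.5 CPM in p53+/+, 21.2, 19.5 and 17.9 CPM in p53R248W/+, and 36.6, 38.9 and 44.0 CPM in p53-/- libraries. The p53-/- libraries were above all others, with a log2 fold change of 1.02 ± 0.19 (adjusted p = 0.0214). Tlr4, the receptor for lipopolysaccharide, rose from 13.1 ± 3.28 to 29.9 ± 6.60 CPM (1.19 ± 0.26, adjusted p = 0.0345).

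Of 30 target genes 0 rose and 1 fell in p53-/- LSKs by edgeR, beside 3.50% of all genes. The counts were 3 higher and 5 lower with DESeq2, and 0 and 0 with limma-voom. At an unadjusted p under 0.05 by edgeR 5 were higher and 7 lower, beside 23.4% of all genes. With 15 positive and 15 negative the median log2 fold change was 0.02, and the median size of change was 0.58, beside 0.33 over all genes. Ccl3, a chemokine gene, had 129, 74.2 and 42.8 CPM in p53+/+, 79.9, 79.8 and 102 CPM in p53R248W/+, and 21.98, 37.1 and 23.3 CPM in p53-/- libraries, a fall of 1.58 ± 0.35 on the log2 scale (adjusted p = 0.0345).

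These 10 calls in p53-/- LSKs depended on the tool and on single libraries. DESeq2 called 2 further inhibitors higher and 3 lower, 5 kinases lower, and 5 receptors and adaptors higher, while limma-voom called 2 higher and 2 lower, 1 lower, and 2 higher in the same lists. Leaving out p53+/+ replicate 2, p53-/- replicate 1 or p53-/- replicate 2 ended all 10, leaving out p53+/+ replicate 3 ended 9 (all but Ccl3), and leaving out p53-/- replicate 3 ended 8 (all but Tax1bp1 and Tlr4). The highest adjusted p over these fits lay between 0.0821 (Nfkbid) and 0.168 (Tnip3) for the 10 genes. Leaving out p53+/+ replicate 1 ended 4, and p53R248W/+ replicate 2 or 3 ended 3 each. Their direction held in every fit. The labels name the p53-/- libraries as a series of their own, and what the names stand for is not stated. In every comparison with p53-/- LSKs, an effect of genotype and of any separate preparation therefore cannot be told apart. Of the sums given above, those of granulocyte and monocyte markers and of T and NK markers were lower in every p53-/- library than in all others, with 0 of 14 and 1 of 7 markers past the threshold (Lck, which fell). The sum of the LSK markers was higher in p53-/- than in p53R248W/+ libraries and overlapped p53+/+, with 1 of 13 past the threshold against p53+/+ (Hlf, which rose). The sum of immediate early and heat shock genes overlapped both other genotypes. The part of these markers and genes in the 10 calls was not tested.

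Against p53-/- LSKs, where 3.44% of all genes passed the threshold, p53R248W/+ LSKs had 2 further inhibitors higher (Nfkbid by 1.53 ± 0.36 and Tax1bp1 by 1.29 ± 0.22 on the log2 scale, adjusted p = 0.0407 and 0.0139) and 1 lower (Rnf11, -0.79 ± 0.19, adjusted p = 0.0457). Ikbkb was the 1 kinase that was higher (1.04 ± 0.24, adjusted p = 0.0386), Tlr2 the 1 receptor that was lower (-1.03 ± 0.19, adjusted p = 0.0194), and Ccl3 the 1 target that was higher (1.67 ± 0.35, adjusted p = 0.0283). All 6 were lost without p53R248W/+ replicate 2, without p53R248W/+ replicate 3, or without p53-/- replicate 2. Without p53-/- replicate 1 or 3, 5 of them were lost, and without p53+/+ replicate 3, 3 were lost. In this comparison DESeq2 called 3 further inhibitors higher and 2 lower, 4 kinases higher, 4 receptors and adaptors lower, and 5 targets higher and 2 lower. With limma-voom 1 further inhibitor was higher and 2 lower, no kinase passed, 1 receptor or adaptor was lower, and 1 target was higher.

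**Figure D5:**
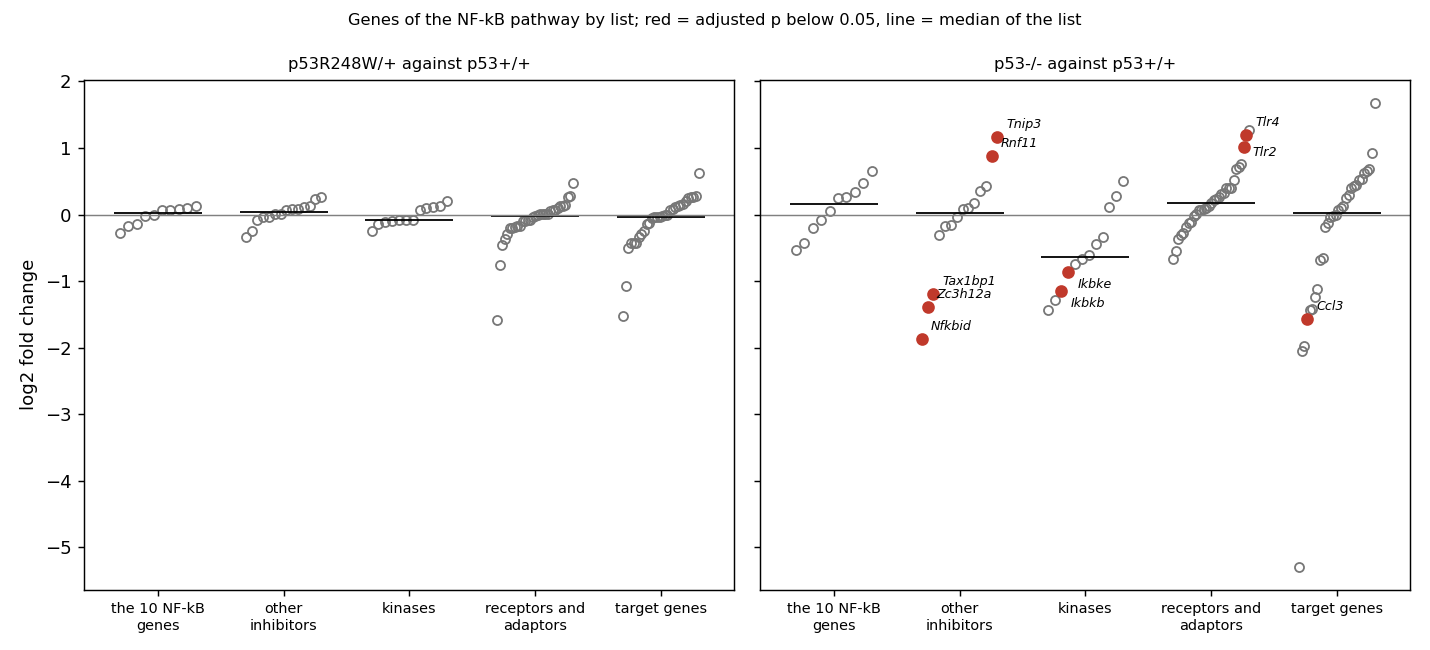
Log2 fold change of each gene of the 10 NF-kB genes, further inhibitors, kinases, receptors and adaptors, and target genes (1 point a gene, list median as a line) for p53R248W/+ (left) and p53-/- (right) against p53+/+, with red points for an adjusted p under 0.05. No point is red on the left, and on the right 10 genes are, none of them among the 10 NF-kB genes. Kinases have the lowest median on the right, -0.64.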

How the data were processed

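RNA-seq libraries of LSKs (3 for each of 3 genotypes) were analysed from the count table deposited by the authors, which gives raw read counts in whole numbers for each gene and a gene length. The submitters' processing notes name STAR 2.5.2b, featureCounts, Subread 1.5.0 and edgeR, and the build mm10, without parameters. For the library preparation, the labels name a SMART-Seq kit, whereas the study's methods give poly(A) capture on beads, RNA fragments and hexamer primers. Whether strand was used in counting is not given in the sources used here, so overlapping genes may share reads. The lowest gene total was 37 counts, so genes with fewer counts are missing from the table. The authors also deposited columns of their own comparisons (log2 fold changes with p-values and false discovery rates), which were not used, and the 2 H3K27me3 ChIP-seq samples were not analysed here.

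Genes were filtered with filterByExpr and tested with edgeR 4.0.16 in R 4.3.3 (TMM, glmQLFit, glmQLFTest, all 9 libraries in 1 fit, common biological coefficient of variation 0.281), with Benjamini-Hochberg adjustment over 12625 genes and a threshold of 0.05. CPM and RPKM were computed from the counts and TMM factors. Correlations used log2 CPM with a prior count of 2. Alternatives were DESeq2 1.42.0, limma 3.58.1 (voom), other size factors, other filters, a replicate block, 6 libraries of a comparison alone, and 1 library left out at a time. On simulated counts for p53-/- against p53+/+ (12597 genes, 200 changed), edgeR recovered 160 with 16 false calls. Recovery was not broken down by abundance or by size of change. It therefore does not give the chance of detecting a change in the NF-kB genes.

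The labels do not say that libraries came from separate animals, so p-values measure the spread between these samples, which may be technical. The 10 genes, the lists and the tests were chosen with earlier results of these data known. Besides the 10 genes, the text names Trp53, at most 4 genes past the threshold from each list and comparison (largest change, mean log2 CPM of at least 1), and the 5 genes most like Nfkbia. Kit, Ly6a, Psd, Chuk and Ikbkg, and Rnf11 for p53-/- against p53+/+, were added after their values were seen.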

Additional observations from a re-analysis of the deposited data

How the results depend on the processing

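None of the 10 NF-kB genes passed the adjusted threshold in any comparison under any of the 17 alternatives tried, the replicate block included, and their lowest adjusted p over these was 0.997 (p53R248W/+ against p53+/+), 0.104 (p53-/- against p53+/+) and 0.0651 (p53R248W/+ against p53-/-). The number with an unadjusted p under 0.05 was 0 throughout in the first and 0 to 2 in the others. Over all genes, the 442, 434 and 1 calls of p53-/- against p53+/+, p53R248W/+ against p53-/- and p53R248W/+ against p53+/+ became 1537, 1325 and 6 with DESeq2, and 894, 208 and 1 when only the 6 libraries of a comparison were used. A stricter filter gave 0 calls for p53R248W/+ against p53+/+. With a replicate block the counts were 882, 672 and 2. The replicate numbers were not taken to pair the samples, since not every pair of same-numbered libraries had deviations that correlated above 0.1: r was 0.361, 0.543 and 0.0388 for p53+/+ with p53R248W/+ (numbers 1, 2 and 3), and -0.108 to 0.132 for pairs with p53-/-. In the labels, p53+/+ and p53R248W/+ libraries of numbers 1 and 2 bear matching names, and the p53-/- libraries are named as a series of their own. What the names stand for is not stated. The replicate block spanned all genotypes, and no fit paired p53+/+ with p53R248W/+ alone. As a hint from the data, p53+/+ replicate 2 and p53R248W/+ replicate 2 were the closest libraries of all (r = 0.986). Leaving out 1 library gave between 37 (without p53+/+ replicate 3) and 1485 (without p53R248W/+ replicate 1) calls for p53-/- against p53+/+, and between 77 (without p53R248W/+ replicate 3) and 1559 (without p53R248W/+ replicate 1) for p53R248W/+ against p53-/-. The cause was not tested.

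The log2 fold changes of several genes changed sign under at least 1 of the 17 alternatives, and none of these was a call. The ranges given here are over all 17 alternatives. For p53R248W/+ against p53+/+ they ranged from -0.11 to 0.21 for Bcl3, -0.0885 to 0.0866 for Nfkb1, -0.0511 to 0.00852 for Nfkb2, -0.22 to 0.29 for Nfkbia, -0.10 to 0.28 for Nfkbie, -0.41 to 0.66 for Nfkbiz, -0.50 to 0.0525 for Relb and -0.47 to 0.16 for Tnfaip3. For p53-/- against p53+/+ they ranged from -0.83 to 0.0520 for Nfkbiz and -0.20 to 0.11 for Rel, and for p53R248W/+ against p53-/- from -0.0370 to 0.45 for Tnfaip3. With 3 libraries for each genotype, a level of Nfkbiz in p53R248W/+ LSKs of up to 1.96-fold of p53+/+ was within its 95% interval.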

Other observations

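The genes whose log2 CPM followed that of Nfkbia most closely over the 9 libraries were Mllt11 (Pearson's r = 0.98), Jkamp (0.96), Tsc22d3 (0.95), Alox5ap (0.95) and Crlf2 (0.95). Tsc22d3 encodes the glucocorticoid-induced leucine zipper protein, and Alox5ap a protein needed for leukotriene synthesis. These values describe 9 libraries of 3 genotypes, were picked as the highest of all genes, and carry no test.

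Among the 10 genes, Nfkbia and Nfkbie had r = 0.82 over the 9 libraries and 0.79 within genotypes, and Rela and Relb had 0.71 and 0.59. Opposite directions were seen for Nfkb1 and Nfkbia, at -0.79 and -0.69, and for Nfkbiz and Bcl3, at -0.78 and -0.78. These pairs had the highest and lowest r over the 9 libraries of all pairs of the 10 genes, and carry no test. Within genotypes the lowest r was that of Nfkbie and Bcl3, at -0.85 (-0.40 over the 9 libraries). Each p53-/- library with more Nfkbia RNA than another had less Nfkb1 RNA, with 187, 150.0 and 138 CPM of Nfkb1 beside 125, 162 and 259 CPM of Nfkbia. This order did not hold throughout in p53+/+ or in p53R248W/+ libraries. The ratio of Nfkbia to Rela RPKM was 1.04 ± 0.188 in p53+/+, 1.31 ± 0.693 in p53R248W/+ and 1.60 ± 0.697 in p53-/- LSKs (SD, n = 3), and its highest values, 2.38 and 2.10, were in p53-/- replicate 2 and p53R248W/+ replicate 1.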
